A study of Mus musculus with 6 samples.

Results

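Blood and lymphatic endothelial genes are described here in inguinal white adipose tissue (iWAT), the subcutaneous fat pad of the groin, of old mice with and without GSNOR. The rule lists 44 genes by symbol and sets no threshold on a measured value: 30 mark or act in blood endothelium, 6 mark or act in lymphatic endothelium, 5 encode secreted vascular growth factors and 3 mark mural cells, the pericytes and smooth muscle that wrap small vessels. Of the 44, 43 had a row among the 22695 rows of the deposited table and 42 had enough counts to be tested. Efnb2 was not analysed here. Pdpn, a lymphatic surface glycoprotein, was listed at 0 counts in both of its rows in all 6 libraries, where 3 counts would have been 0.125 to 0.148 CPM (counts scaled to the library total). Whether reads of Pdpn were dropped in counting is not known, so these values are not read as absence of its RNA.

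The 3 GSNOR KO mice lacked S-nitrosoglutathione reductase, the enzyme encoded by Adh5, and were set against 3 WT mice; both groups were C57BL/6J and aged 20 months. The labels name no tissue-restricted deletion and give neither the sex nor the allele, and they do not state that the libraries came from separate animals; p-values therefore refer to the spread among these 6 libraries, which may be technical. Poly(A) RNA of the whole pad was sequenced, which holds adipocytes, vessels, immune cells and any attached muscle.

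GSNOR breaks down S-nitrosoglutathione, which carries a nitric oxide group, and nitric oxide made by endothelium relaxes vessels. Blood endothelium is built and kept by VEGF-A acting on KDR (VEGFR2) with the neuropilins as co-receptors, by angiopoietins acting on the Tie receptors, and by DLL4 signalling to Notch receptors between neighbouring endothelial cells. Lymphatic endothelium takes its identity from the transcription factor PROX1 and grows in response to VEGF-C acting on FLT4 (VEGFR3). Fat is densely supplied with capillaries, and each adipocyte lies close to one.

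The libraries held 20277594 to 23961574 counts, and 28.8 to 37.8% of them came from the mitochondrial genome. Adh5, the deleted gene, averaged 4.30 ± 0.683 CPM in GSNOR KO and 67.3 ± 9.08 CPM in WT (SD, n = 3 each), with no overlap between groups. All 8 adipocyte markers had enough counts to be tested, with a median log2 fold change of 0.07; 1 was called lower, leptin (Lep), with 11.9, 9.06 and 11.4 CPM in GSNOR KO and 87.5, 310.2 and 132 CPM in WT. WT replicate 1 stood apart from the other libraries. The 13 skeletal muscle markers with a row, 12 of them tested, summed to 8950, 5670 and 8360 CPM in GSNOR KO and 34927, 14469 and 14656 CPM in WT. The 12 macrophage markers with a row, 11 of them tested, summed to 170, 129 and 160 CPM in GSNOR KO and 620, 282 and 283 CPM in WT. Of these, 6 muscle and 5 macrophage markers were called lower in GSNOR KO. All 12 tested muscle markers and 10 of the 11 tested macrophage markers were highest in WT replicate 1. The 11 tested fibroblast and progenitor markers, of which 5 were called lower, summed to 628, 535 and 568 CPM in GSNOR KO and 885, 996 and 820 CPM in WT; their median log2 fold change (GSNOR KO over WT) was -0.89, and -0.96 without WT replicate 1. Where leaving out WT replicate 1 moved the fold change of an endothelial, lymphatic, ligand or mural gene by over 1.5 times, both values are given.

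Across the 42 tested genes, 31 had a higher fitted level in GSNOR KO than in WT, but only 1 gene passed the test, and it was lower: Prox1, the lymphatic master regulator. No gene was called higher by the edgeR quasi-likelihood test at an adjusted p under 0.05. Over all 13694 genes tested, 7.04% were called, with 3.90% higher in GSNOR KO and 3.14% lower. The 7 genes of smallest p among the 42 were Prox1, and on the higher side Flt4, Dll4, Kdr, Eng, Notch4 and Robo4. Their unadjusted p was under 0.05. How many of all genes were under that level was not counted here, so this is not read as a result about the set. DESeq2 called the same 7 genes, 6 higher and Prox1 lower, where it called 7.29% of all genes higher and 7.69% lower.

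Most blood endothelial genes had higher fitted levels in GSNOR KO, and none passed the edgeR test. Of the 29 tested, 24 had a log2 fold change above 0, and the median was 0.28, against a share of 45.5% above 0 and a median of -0.04 over all genes. In 11 of the 29, all 3 GSNOR KO libraries lay above all 3 WT libraries, and in none did they lie below; over all genes 17.3% were apart with GSNOR KO higher and 19.4% with GSNOR KO lower. WT replicate 1 was the lowest of the 6 libraries for 27 of the 29 genes, against 29.0% of all genes. Without it the median of the blood endothelial genes was 0.09. In whole-tissue RNA, fewer endothelial cells and less of these RNAs per cell cannot be told apart, and the part of the muscle and macrophage RNA of WT replicate 1 in these values was not tested.

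**Figure D1:**
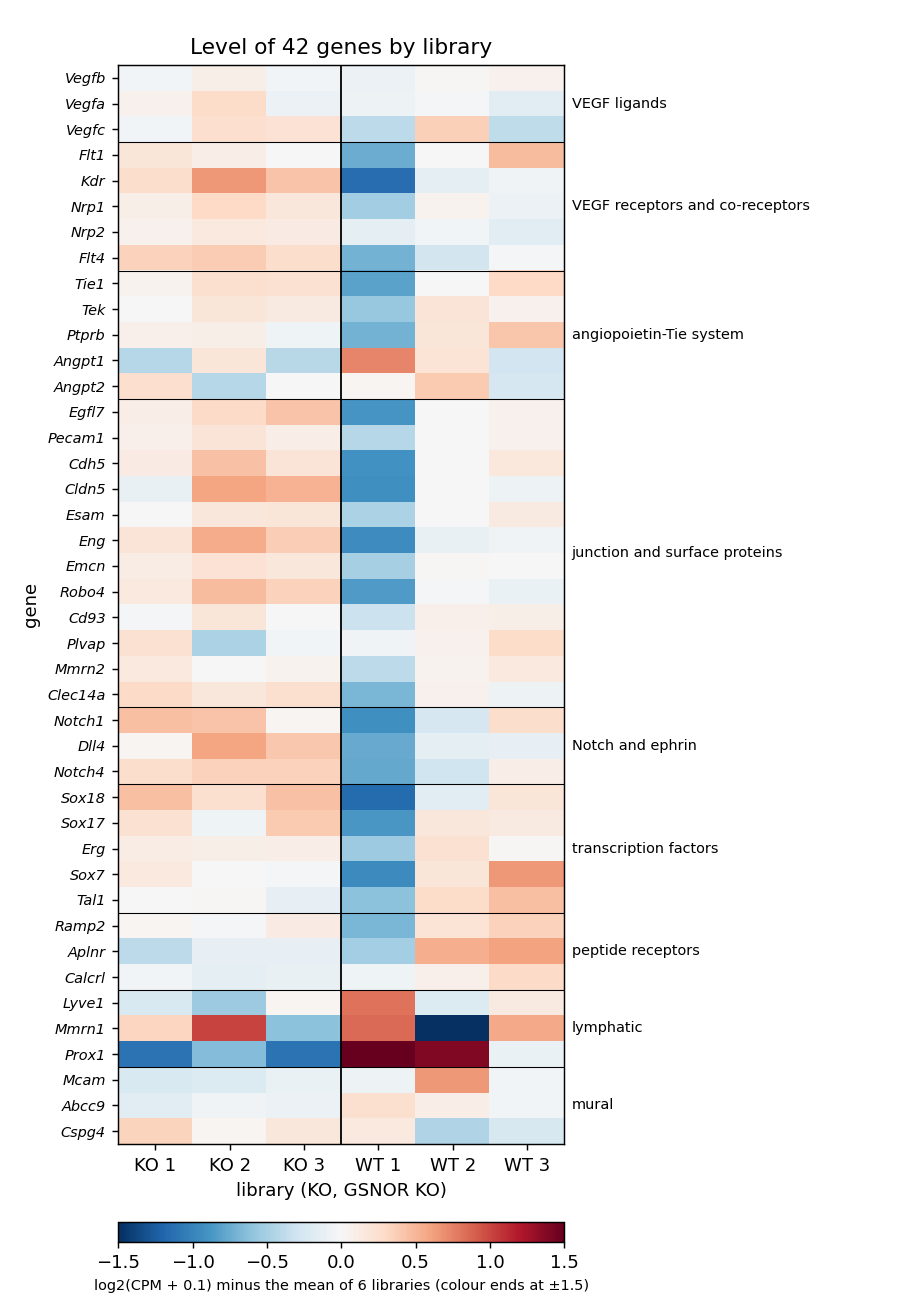
Rows are the 42 tested genes grouped by role, and columns are the 3 GSNOR KO and 3 WT libraries; colour is log2(CPM + 0.1) minus the mean of the 6 libraries. WT replicate 1 is blue in most blood endothelial rows, and Prox1 is low in all 3 GSNOR KO libraries.

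Leaving out WT replicate 1 changed which genes passed. With 3 GSNOR KO and 2 WT libraries, 8 genes were called higher (Kdr, Eng, Flt4, Dll4, Notch4, Robo4, Sox18 and Cspg4) and 2 lower (Prox1 and Aplnr). In that smaller fit the calls among all 13850 genes tested came to 11.8% on the higher and 8.77% on the lower side. The fold changes of the 6 vascular signalling genes in this set were smaller without the library: that of Kdr was 0.59 in place of 0.83, and that of Notch4 0.44 in place of 0.60. More genes passed without this library although these 6 fold changes were smaller.

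**Figure D2:**
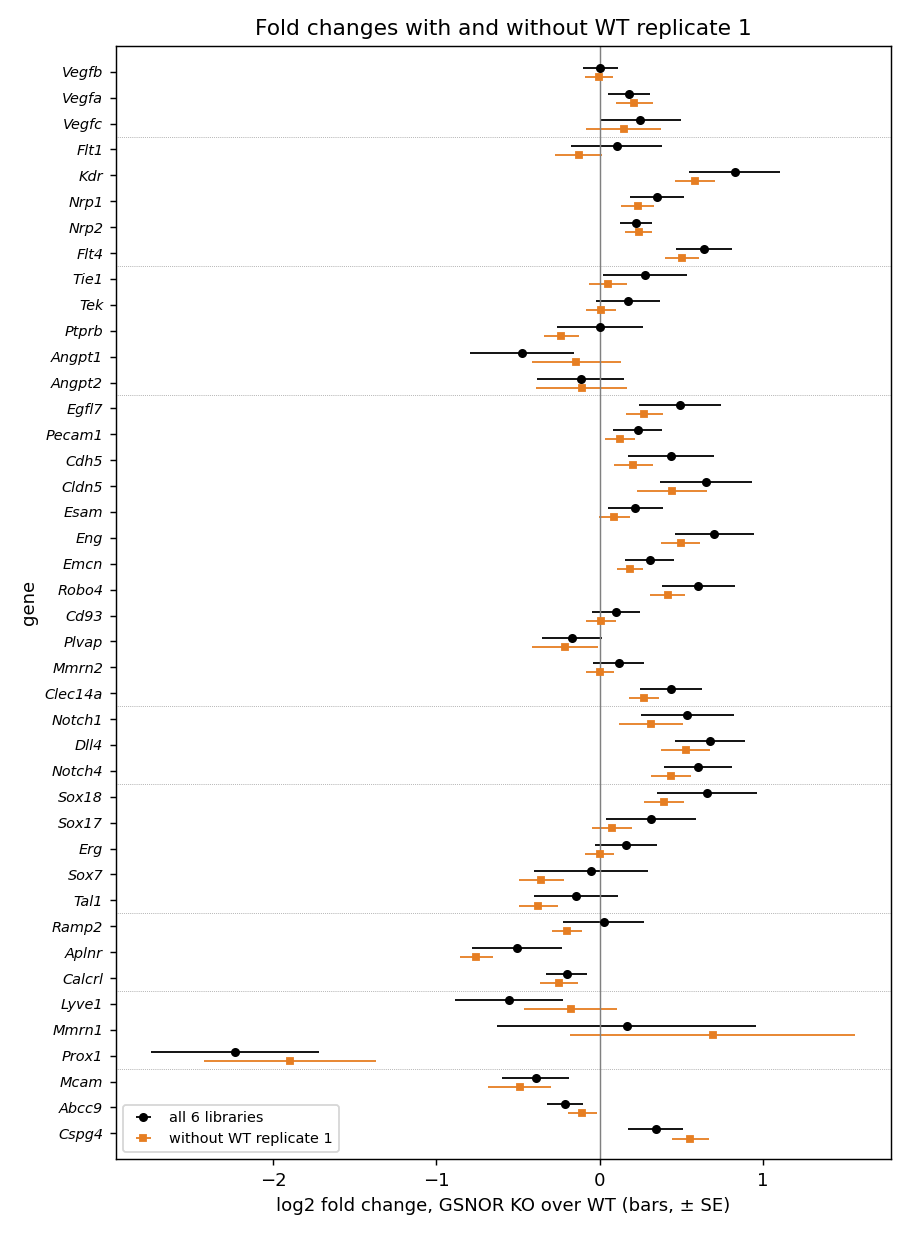
Each row is 1 tested gene, with its log2 fold change (GSNOR KO over WT, bars ± SE) from all 6 libraries as black circles and without WT replicate 1 as orange squares. Prox1 lies far to the left in both, Kdr has the highest value of the blood endothelial genes in both, and Flt1 and Ramp2 change sign.

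None of the 5 growth factor genes passed the test. Vegfb, which encodes a ligand of FLT1, was the ligand of highest FPKM (the deposited unit, scaled to transcript length and library size), with 156 ± 14.3 FPKM in GSNOR KO and 156 ± 10.9 FPKM in WT. Its CPM was 135, 147 and 135 in GSNOR KO and 131, 140.1 and 145 in WT, a log2 fold change of 0.00 (SE 0.106, adjusted p = 0.984) that became -0.0062 without WT replicate 1. Vegfa, the main ligand of KDR, had 167, 194 and 151 CPM in GSNOR KO and 152, 158 and 143 CPM in WT, a log2 fold change of 0.18 (SE 0.128, adjusted p = 0.399). The groups overlapped for both genes.

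Vegfc, which drives lymphatic growth through FLT4, had a log2 ratio of 0.25 (adjusted p = 0.552) at 3.11 ± 0.216 FPKM in GSNOR KO and 2.7 ± 0.579 FPKM in WT, and of 0.15 without WT replicate 1. The angiopoietins were near 1 to 2 FPKM: Angpt1, the TIE2 agonist made by mural cells, averaged 1.40 ± 0.293 FPKM in GSNOR KO and 1.73 ± 0.68 FPKM in WT, and Angpt2, the context-dependent antagonist made by endothelium, 1.17 ± 0.303 FPKM in GSNOR KO and 1.22 ± 0.215 FPKM in WT. Angpt1 had 3.51, 5.43 and 3.55 CPM in GSNOR KO and 7.96, 5.51 and 3.89 CPM in WT, a log2 fold change of -0.48 (SE 0.316, adjusted p = 0.363), and -0.14 without WT replicate 1 (adjusted p = 0.739), its highest library. No ligand gene passed the test, and in none were the groups apart.

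None of the 5 VEGF receptor and co-receptor genes passed the test, and in 4 of them the groups were apart with GSNOR KO higher. Over all genes 17.3% were apart in that direction. WT replicate 1 was the lowest library for 4 of the 5 genes, all but Nrp2. Kdr, the main VEGF-A receptor of blood endothelium (chromosome 5, 75932827 to 75978458, GRCm38), had 409, 536 and 460.1 CPM in GSNOR KO and 155, 309 and 328 CPM in WT. Every GSNOR KO library lay above every WT library, and the means were 468 ± 63.8 CPM in GSNOR KO and 264 ± 95.2 CPM in WT (SD, n = 3 each). The log2 fold change was 0.83 (SE 0.28, adjusted p = 0.107), which missed the threshold, and without WT replicate 1 it was 0.59 (adjusted p = 0.0113).

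Flt1, the receptor that binds VEGF-A tightly and signals weakly, showed no such separation, with 364, 342 and 322 CPM in GSNOR KO and 191, 318 and 446 CPM in WT. The WT libraries held both the lowest and the highest value. The log2 fold change of 0.10 (SE 0.278, adjusted p = 0.835) became -0.13 without WT replicate 1.

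Flt4, the VEGF-C receptor, is made by lymphatic endothelium and also by some blood capillaries. It had 46.1, 47.3 and 43.6 CPM in GSNOR KO and 22.2, 30.0 and 35.7 CPM in WT. The 3 GSNOR KO libraries were close together and above all WT libraries; the log2 fold change was 0.64 (SE 0.172, adjusted p = 0.0641), and 0.51 without WT replicate 1 (adjusted p = 0.00988).

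Both co-receptors had their groups apart as well, with smaller fold changes. Nrp1, the neuropilin of blood endothelium, had 250.1, 290.3 and 267 CPM in GSNOR KO and 164, 245 and 222 CPM in WT, a log2 fold change of 0.35 (SE 0.166, adjusted p = 0.21). Nrp2, the neuropilin of veins and lymphatics, had 74.6, 79.1 and 77.3 CPM in GSNOR KO and 64.7, 69.5 and 63.7 CPM in WT, a log2 fold change of 0.22 (SE 0.0967, adjusted p = 0.18). For Nrp2 WT replicate 1 was not the lowest library, and the log2 fold change without it was 0.24, while that of Nrp1 was 0.23.

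**Figure D3:**
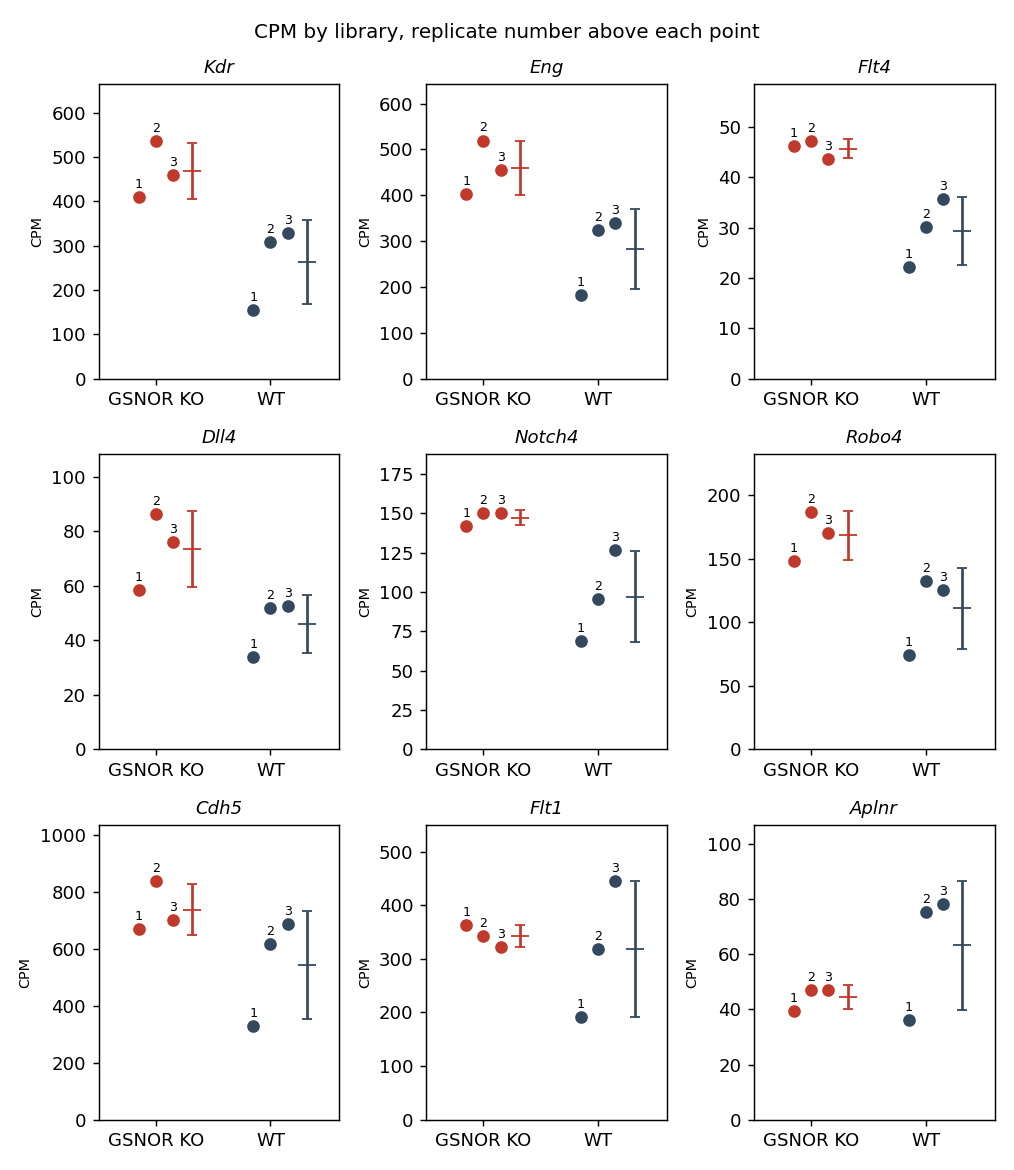
Each panel plots CPM of 1 gene in the 3 GSNOR KO and 3 WT libraries (points, replicate number above) with mean ± SD beside them. Kdr, Eng, Flt4, Dll4, Notch4 and Robo4 have all GSNOR KO points above all WT points, while those of Cdh5, Flt1 and Aplnr overlap.

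The Tie receptors and their phosphatase showed no separation. Tie1, the receptor of highest FPKM in this system at 55.0 ± 1.47 FPKM in GSNOR KO and 48.9 ± 15.8 FPKM in WT, had 308, 350.0 and 349 CPM in GSNOR KO and 171, 295 and 365 CPM in WT. Its log2 fold change was 0.28 (SE 0.257, adjusted p = 0.52), and 0.05 without WT replicate 1. Tek, which encodes the angiopoietin receptor TIE2, had a log2 ratio of 0.17 (adjusted p = 0.602), and Ptprb, the endothelial phosphatase VE-PTP that acts on TIE2, 0.00 (SE 0.266, adjusted p = 0.997). Ptprb was at 238 to 264 CPM in GSNOR KO, against 151, 280.0 and 332 CPM in WT. Without WT replicate 1 the log2 fold change was 0.01 for Tek and -0.23 for Ptprb.

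Junction and surface proteins held the endothelial genes of highest level per length. Egfl7, a secreted endothelial matrix factor, stood at 215 ± 7.07 FPKM in GSNOR KO and 169.6 ± 46.3 FPKM in WT, Pecam1 (CD31) at 177 ± 13.3 FPKM in GSNOR KO and 149.8 ± 14.5 FPKM in WT, and Cdh5 (VE-cadherin) at 179 ± 18.5 FPKM in GSNOR KO and 134 ± 41.0 FPKM in WT. These 3 levels did not differ from each other beyond their spread in WT, while in GSNOR KO that of Egfl7 lay above the other 2. The gene of smallest p among the 12 junction and surface genes was Eng.

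Eng encodes endoglin, a co-receptor for BMP9 and TGF-beta (chromosome 2, 32646595 to 32682669, GRCm38). It had 403, 519 and 455 CPM in GSNOR KO and 183, 325 and 339 CPM in WT, so that no WT library reached the lowest GSNOR KO library. The means were 459 ± 58.5 CPM in GSNOR KO and 282 ± 86.7 CPM in WT, a log2 fold change of 0.70 (SE 0.241, adjusted p = 0.11), and 0.50 without WT replicate 1 (adjusted p = 0.0183). Eng overlaps Fpgs in the annotation, and reads of both loci may be shared.

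Robo4, an endothelial receptor that stabilises vessels, followed the same order, with 148, 187 and 170.0 CPM in GSNOR KO and 74.5, 132 and 125 CPM in WT. Its log2 fold change was 0.60 (SE 0.223, adjusted p = 0.129), and 0.42 without WT replicate 1 (adjusted p = 0.026). The general endothelial markers were less separated: Pecam1 had 436, 470.3 and 441 CPM in GSNOR KO and 306, 409 and 432 CPM in WT, a log2 fold change of 0.23 (SE 0.153, adjusted p = 0.36). In Pecam1 the lowest GSNOR KO library lay just above the highest WT library, and the log2 fold change without WT replicate 1 was 0.12.

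Cdh5 had 669.6, 838 and 703 CPM in GSNOR KO and 328, 619 and 686 CPM in WT, and the groups overlapped (log2 fold change 0.44, SE 0.266, adjusted p = 0.323). Egfl7 had 253, 289.8 and 319.7 CPM in GSNOR KO and 128, 238 and 247 CPM in WT, without overlap (log2 fold change 0.49, SE 0.25, adjusted p = 0.242); it overlaps Agpat2 in the annotation, a gene active in adipocytes. Without WT replicate 1 the log2 fold change was 0.21 for Cdh5 and 0.27 for Egfl7.

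Clec14a, an endothelial lectin of sprouting vessels, had 43.7, 40.4 and 42.5 CPM in GSNOR KO and 22.2, 37.5 and 34.0 CPM in WT (log2 fold change 0.43, SE 0.189, adjusted p = 0.181). Emcn, a sialomucin of capillaries and veins, had 65.7, 70.6 and 68.3 CPM in GSNOR KO and 43.0, 61.7 and 60.9 CPM in WT (log2 fold change 0.31, SE 0.153, adjusted p = 0.236). Both had their groups apart by a narrow margin, and without WT replicate 1 the log2 fold change was 0.27 for Clec14a and 0.18 for Emcn.

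Of the remaining surface genes, Cldn5, the tight junction claudin, had a log2 fold change of 0.65 (SE 0.282, adjusted p = 0.182) with overlapping groups. Esam, Mmrn2 and Cd93, adhesion and matrix proteins of endothelium, lay between 0.10 and 0.22, and without WT replicate 1 at 0.09 for Esam, 0.00 for Mmrn2 and 0.01 for Cd93. Plvap, the diaphragm protein of fenestrated capillaries and venules, had a log2 ratio of -0.17 (adjusted p = 0.591), with 33.6 to 54.4 CPM in GSNOR KO and 44.7 to 56.4 CPM in WT.

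All 3 tested Notch genes had fold changes above 0, and none passed the test. Dll4, the Notch ligand of arteries and sprouting tip cells, had 58.4, 86.2 and 75.9 CPM in GSNOR KO and 33.8, 51.7 and 52.6 CPM in WT. The groups were apart, with a log2 fold change of 0.68 (SE 0.212, adjusted p = 0.0902), and 0.53 without WT replicate 1 (adjusted p = 0.0463). Notch4, the Notch receptor largely restricted to endothelium, had 142, 150.0 and 150.2 CPM in GSNOR KO and 69.0, 95.6 and 127 CPM in WT. Its groups were apart too, at a log2 fold change of 0.60 (SE 0.209, adjusted p = 0.111), and 0.44 without WT replicate 1 (adjusted p = 0.0319).

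Notch1, which is not restricted to endothelium, had 136, 133 and 101 CPM in GSNOR KO and 52.4, 83.5 and 119 CPM in WT, with overlap (log2 fold change 0.54, SE 0.284, adjusted p = 0.258). Notch1 was lowest in WT replicate 1, and its log2 fold change without that library was 0.31.

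None of the 5 endothelial transcription factors passed the test. Sox18, the SOXF factor of highest FPKM (119.5 ± 17.9 FPKM in GSNOR KO and 84.9 ± 32.9 FPKM in WT), had 217, 186 and 215 CPM in GSNOR KO and 70.7, 142 and 179 CPM in WT. The groups were just apart, at a log2 fold change of 0.66 (SE 0.306, adjusted p = 0.207), and 0.39 without WT replicate 1 (adjusted p = 0.049). For its relatives the groups overlapped: Sox17, the arterial SOXF factor, had a log2 ratio of 0.31 (adjusted p = 0.494) and Sox7 of -0.05 (adjusted p = 0.938). Erg, the ETS factor that maintains endothelial identity, was at 57.0, 56.4 and 56.4 CPM in GSNOR KO and 36.1, 62.1 and 53.4 CPM in WT, a log2 ratio of 0.16 (adjusted p = 0.612), and 0.00 without WT replicate 1. Tal1, a haemato-endothelial factor, had a log2 ratio of -0.15 (adjusted p = 0.75). Without WT replicate 1, the lowest library of all 5 genes, the log2 fold change was 0.08 for Sox17, -0.36 for Sox7 and -0.38 for Tal1.

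None of the 3 peptide receptor genes passed the test with all 6 libraries. Aplnr, the apelin receptor of veins and sprouting endothelium, had 39.3, 47.1 and 47.2 CPM in GSNOR KO and 36.2, 75.3 and 78.3 CPM in WT. WT replicates 2 and 3 lay above every GSNOR KO library and WT replicate 1 below them. The log2 fold change was -0.51 (SE 0.277, adjusted p = 0.273), and -0.76 without WT replicate 1 (adjusted p = 0.00166).

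Ramp2 and Calcrl together form the adrenomedullin receptor of endothelium. Ramp2 had 108, 103 and 115 CPM in GSNOR KO and 65.5, 121 and 134 CPM in WT, a log2 fold change of 0.03 (SE 0.249, adjusted p = 0.958) that became -0.20 without WT replicate 1. Calcrl had 16.3, 15.3 and 15.5 CPM in GSNOR KO and 16.0, 17.7 and 20.5 CPM in WT, a log2 fold change of -0.20 (SE 0.126, adjusted p = 0.335). Ramp2 overlaps Vps25 in the annotation.

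To describe levels relative to other endothelial genes, each gene was set against the mean log2(CPM + 0.1) of 24 of them. The comparison was chosen after the data were seen and is given with no test. Some of the 24, such as Klf2 and Klf4, are also made by other cells, so the scale does not separate balance within endothelium from cell composition. The mean of the 24 genes was 7.12, 7.29 and 7.21 in GSNOR KO and 6.33, 7.06 and 7.08 in WT. Relative to it, Kdr stood at 1.55, 1.78 and 1.64 in GSNOR KO and 0.95, 1.21 and 1.28 in WT, and Eng at 1.53, 1.73 and 1.62 in GSNOR KO and 1.18, 1.28 and 1.32 in WT. Both remained apart, and WT replicate 1 lay closer to the other WT libraries than it did in CPM. The differences of the means were 0.51 for Kdr and 0.36 for Eng on the log2 scale.

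On the same relative scale Aplnr stood at -1.82, -1.73 and -1.65 in GSNOR KO and -1.15, -0.83 and -0.79 in WT, a difference of -0.81 with no overlap. Calcrl stood at -3.09, -3.34 and -3.24 in GSNOR KO and -2.32, -2.91 and -2.72 in WT, a difference of -0.58. On this scale all 3 WT libraries lay above all GSNOR KO libraries for both genes, which was not so in CPM.

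In all, 5 of the 42 genes were apart and higher in GSNOR KO relative to the 24 genes (Kdr, Eng, Flt4, Robo4 and Notch4), where 2.96% of all tested genes were. Another 10 were apart and lower (Prox1, Aplnr, Calcrl, Ramp2, Tal1, Cd93, Tek, Vegfb, Mcam and Abcc9), where 39.5% of all tested genes were, so a lower relative level was common in the whole transcriptome. The lists depended on the denominator. Kdr and Eng stayed apart on the higher side, and Prox1, Aplnr and Calcrl on the lower side, with each of 4 denominators: the 24 genes, the 21 of them that were not called, Pecam1 alone and Cdh5 alone. Over all genes 1.47% were higher and 23.9% lower with all 4. The difference of Aplnr was -0.68, -0.68 and -0.93 with the last 3 denominators, and that of Kdr 0.64, 0.65 and 0.39.

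**Figure D4:**
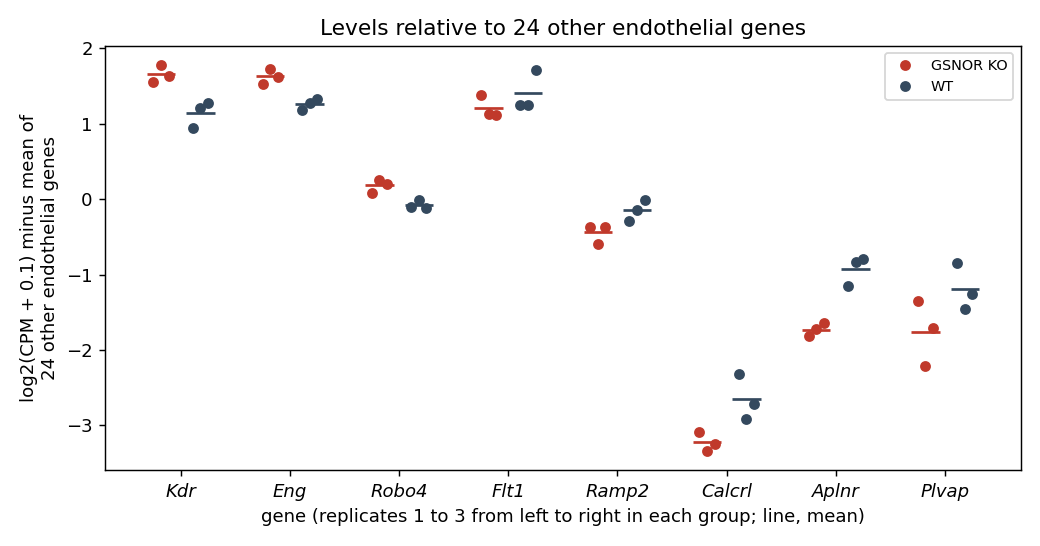
The y axis is log2(CPM + 0.1) of each gene minus the mean of 24 other endothelial genes in the same library; points are libraries (red GSNOR KO, dark WT) and lines are means. Kdr, Eng and Robo4 lie higher in all GSNOR KO libraries, Ramp2, Calcrl and Aplnr lower, and Flt1 and Plvap overlap.

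Kdr and Eng are the 2 genes whose higher relative level held under all 4 denominators, so their promoter sequence is shown, as the 250 bases before the annotated start in RefSeq (GRCm38.p6). Capitals mark the motif AGGAAG on either strand, a form of ETS site. ETS factors such as ERG bind endothelial promoters through this kind of site. Other forms of ETS site were not searched and are not marked.
Kdr, chr5:75978456-75978705, minus strand: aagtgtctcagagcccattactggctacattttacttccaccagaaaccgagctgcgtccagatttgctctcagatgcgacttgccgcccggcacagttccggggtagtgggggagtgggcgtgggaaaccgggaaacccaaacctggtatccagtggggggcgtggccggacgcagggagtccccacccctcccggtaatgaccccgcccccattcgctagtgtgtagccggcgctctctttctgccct
Eng, chr2:32646345-32646594, plus strand: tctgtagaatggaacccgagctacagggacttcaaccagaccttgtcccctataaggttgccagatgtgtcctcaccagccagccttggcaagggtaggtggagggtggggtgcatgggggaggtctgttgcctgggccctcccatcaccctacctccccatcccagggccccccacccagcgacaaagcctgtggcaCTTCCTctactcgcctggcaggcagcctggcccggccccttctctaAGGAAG
Eng held 2 copies of AGGAAG and Kdr none in this window, which does not tell whether Kdr holds other forms of ETS site. Of the 29 genes of the set matched to RefSeq windows, 10 held the motif, in 11 of 36 windows (30.6%), against 29.5% of 32851 mouse windows of the same length. The core TGGGAA, bound by the Notch effector RBPJ and left in lower case above, was in 10 of the 36 windows (27.8%), against 21.6% of all windows. A match of letters is a description and not a binding site.

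The lymphatic genes were far scarcer than the blood endothelial genes and had fold changes on both sides of 0, 3 of the 5 tested above and 2 below. Their summed FPKM was 1.09, 0.986 and 1.0% of that of the blood endothelial genes in GSNOR KO and 1.56, 0.943 and 0.903% in WT, mostly from Flt4 and Nrp2. For Prox1, Lyve1 and Mmrn1 alone the share was 0.0764, 0.0698 and 0.0806% in GSNOR KO and 0.283, 0.0851 and 0.0966% in WT. WT replicate 1 was highest for both shares, and the GSNOR KO libraries overlapped WT in the first and lay below WT in the second.

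Prox1 (chromosome 1, 190118035 to 190170714, GRCm38) fell in GSNOR KO. It had 11, 16 and 11 counts in GSNOR KO and 85, 71 and 24 counts in WT, or 0.494, 0.718 and 0.494 CPM in GSNOR KO and 3.72, 3.26 and 1.10 CPM in WT. The groups did not overlap, and the spread was wide in WT. The log2 fold change was -2.23 (SE 0.514, edgeR adjusted p = 0.0461), between -2.57 and -1.89 as each library was left out, and the call held in 2 of the 6 leave-outs, those without WT replicate 1 (adjusted p = 0.0327) and without WT replicate 3.

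Prox1 in mice is also made by slow muscle fibres, and the slow muscle markers followed the same order over the WT libraries. Myh7, slow myosin heavy chain, had 453, 287 and 436 CPM in GSNOR KO and 1853, 1081 and 648 CPM in WT, and Tnnt1, slow troponin T, 224, 199 and 237 CPM in GSNOR KO and 1012, 458 and 295 CPM in WT. In WT all 3 genes were highest in replicate 1 and lowest in replicate 3. In GSNOR KO the order was not shared: Prox1 was highest in replicate 2, where Myh7 and Tnnt1 were lowest. Other muscle markers went either way between WT replicates 2 and 3, as Myh4 had 3778 and 4308 CPM there and Mb 735 and 541 CPM. The part of muscle RNA in the Prox1 value was not tested.

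Lyve1, a hyaluronan receptor of lymphatic capillaries that some tissue macrophages also carry, had 2.74, 2.20 and 3.32 CPM in GSNOR KO and 5.77, 2.80 and 3.57 CPM in WT. Its groups overlapped, at a log2 fold change of -0.55 (SE 0.328, adjusted p = 0.307), and -0.18 without WT replicate 1. Mrc1 (CD206), a marker of such macrophages, had 7.69, 5.65 and 10.1 CPM in GSNOR KO and 24.2, 17.7 and 15.9 CPM in WT. Cd163, another macrophage marker, had overlapping groups, at a log2 fold change of -0.12 (SE 0.294, adjusted p = 0.816). Cd163 was lowest in WT replicate 1, where Lyve1 and Mrc1 were highest. In 10 of the 11 tested macrophage markers, Mrc1 among them, all GSNOR KO libraries lay below all WT libraries. Over all tested genes 19.4% did. The part of macrophage RNA in the Lyve1 value was not tested.

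Mmrn1, a multimerin of lymphatic endothelium and platelets, had 27, 45 and 13 counts in GSNOR KO and 41, 3 and 32 counts in WT. WT replicate 2 was far below the other libraries and the groups overlapped (log2 fold change 0.17, SE 0.794, adjusted p = 0.913; 0.69 without WT replicate 1). Thus of the 3 genes most particular to lymphatic endothelium by background knowledge, Prox1 passed the test, and Lyve1 and Mmrn1 did not.

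**Figure D5:**
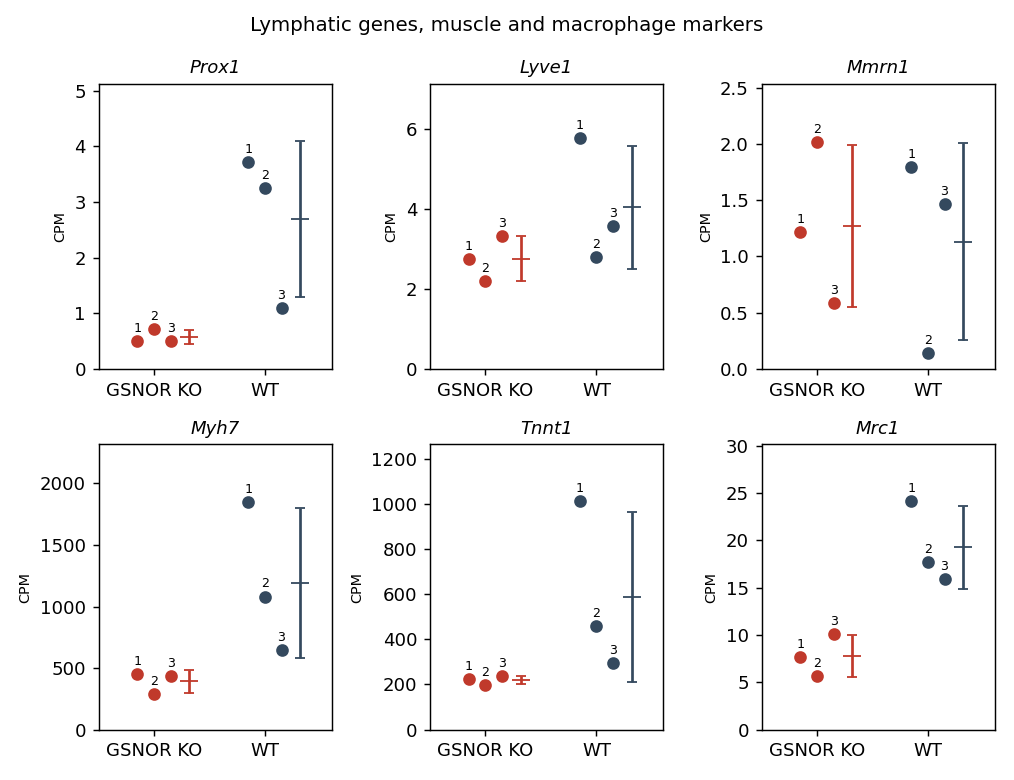
Each panel plots CPM in the 3 GSNOR KO and 3 WT libraries (points, replicate number above) with mean ± SD, for the lymphatic genes Prox1, Lyve1 and Mmrn1, the slow muscle markers Myh7 and Tnnt1 and the macrophage marker Mrc1. Prox1, Myh7, Tnnt1 and Mrc1 have all GSNOR KO points below all WT points, and Lyve1 and Mmrn1 overlap.

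None of the 3 mural genes passed the test, and the fold changes of 2 were below 0. Mcam (CD146), found on pericytes, smooth muscle and endothelium, had 57.9, 59.0 and 63.3 CPM in GSNOR KO and 64.1, 107 and 65.8 CPM in WT (log2 fold change -0.39, SE 0.203, adjusted p = 0.248). Abcc9, the sulfonylurea receptor of pericyte potassium channels, had 51.9, 56.4 and 55.3 CPM in GSNOR KO and 69.5, 63.0 and 57.0 CPM in WT (log2 fold change -0.21, SE 0.111, adjusted p = 0.254). In both the groups were apart with GSNOR KO lower, by a margin smaller than the WT spread. Without WT replicate 1 the log2 fold change of Abcc9 was -0.11.

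Cspg4 (NG2), a pericyte proteoglycan also made by other progenitors, had 85.3, 68.8 and 76.2 CPM in GSNOR KO and 74.8, 49.4 and 57.4 CPM in WT, with overlap. Its log2 fold change was 0.34 (SE 0.17, adjusted p = 0.233), and 0.55 without WT replicate 1 (adjusted p = 0.0102); that library was its highest in WT. Of 10 further pericyte genes, 1 was called lower, Anpep (aminopeptidase N) at a log2 ratio of -1.0 (adjusted p = 0.0409), and the median was 0.12. Of 8 vascular smooth muscle markers 1 was called lower, Lmod1 (leiomodin) at -0.94 (adjusted p = 0.0428). Of these 8 markers, 6 had a log2 fold change above 0 and 2 below. Their median was 0.12, and -0.09 without WT replicate 1. The part of the lower fibroblast and progenitor markers in the mural and pericyte values was not tested, nor was the part of muscle RNA.

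Of 24 other endothelial genes outside the set, 3 were called higher and none lower, against 3.90% higher and 3.14% lower over all genes. Their median log2 fold change was 0.33, and 21 of the 24 were lowest in WT replicate 1. Without that library the median was 0.06 and 2 were called higher, in a fit that called 11.8% of all genes higher. The called genes were Klf2, the shear stress factor, with 288, 613 and 472 CPM in GSNOR KO and 121, 195 and 75.1 CPM in WT (log2 fold change 1.81, SE 0.395, adjusted p = 0.0428), its relative Klf4 at 1.39 (SE 0.269, adjusted p = 0.0333), and Tm4sf1, a surface protein of endothelium, at 0.65 (SE 0.144, adjusted p = 0.0429). Klf2 and Klf4 are made in many other cell types as well.

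Of 10 fat capillary genes none was called, with a median of 0.20. WT replicate 1 was the lowest library for 9 of the 10, and the median without it was 0.10. This list shares a gene with the adipocyte markers above, and the part of adipocyte RNA in its values was not tested. Of 23 tested genes of the VEGF, angiopoietin and Notch pathways outside the set, 1 was called higher, Svep1, a matrix protein that binds TIE1, at 0.71 (SE 0.107, adjusted p = 0.0206), and 1 lower, Hif1a, the hypoxia factor upstream of VEGF-A, at -0.45 (SE 0.105, adjusted p = 0.0469). The median of these genes was -0.01, and without WT replicate 1 it was -0.15, with 4 called higher and 3 lower. That fit called 11.8% of all genes higher and 8.77% lower. As each library was left out in turn, the calls of Klf2, Klf4, Tm4sf1, Svep1, Hif1a, Anpep and Lmod1 held in 0 to 2 of the 6 fits. Of 11 further lymphatic genes tested none was called, with a median of -0.66. Without WT replicate 1 the median was -0.52, with 1 called higher and 2 lower, against 11.8% and 8.77% of all genes. Beside them, the 11 B and T cell markers with a row, 9 of them tested, summed to 15.4, 9.11 and 15.4 CPM in GSNOR KO and 38.3, 17.4 and 70.6 CPM in WT. The part of lymphocyte RNA in these lymphatic values was not tested.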

How the data were processed

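Poly(A) RNA-seq of whole iWAT was available for 3 GSNOR KO and 3 WT libraries. The authors deposited 1 table with raw counts per gene and FPKM, per the file headers, made on build GRCm38 (mm10), per the submitters' processing notes. Which aligner and counter were used, and whether strand was used, is not given in the sources used here. Overlapping genes may therefore share counts. FPKM served for levels between genes and for 1 alternative test.

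Differential expression was tested on the counts in edgeR 4.0.16 (R 4.3.3) by the robust quasi-likelihood F test of GSNOR KO against WT, after filterByExpr (13694 genes left) and TMM scaling (factors 0.930 to 1.08). Benjamini-Hochberg adjustment ran over every gene tested, with calls at an adjusted p under 0.05. The SE was taken as log2 fold change over √F. The script was tested on simulated data. CPM are counts scaled by TMM-adjusted library sizes. An exact permutation test of 3 against 3 cannot go below 0.10, so single values rest on the model across genes. No 2 libraries were duplicates (Pearson r 0.970 to 0.989 across genes).

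The members and lists were chosen with earlier results of these data known. Values in every library were given for each member called, each member whose groups did not overlap, and in each role the members of highest FPKM and of smallest p; other members by fold change or range. Genes that are no members were named only where called, or where markers of another cell type stand beside a member. Outside that rule, Cdh5, Erg, Calcrl and Mmrn1 were given in every library after their values were seen. Coordinates are those of GENCODE M21. Alternatives were RLE factors, library totals only, no filter, at least 1 CPM in 3 libraries, no robust dispersion, the replicate block, each library left out, DESeq2 1.42.0, and limma 3.58.1 as voom and on log2(FPKM + 0.1) of genes with at least 0.5 FPKM in 3 libraries. The relative levels and their denominators were chosen after the data were seen.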

Additional observations from a re-analysis of the deposited data

How the results depend on the processing

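Counts of calls depended on the libraries and the tool. The number of genes called among all tested was 964 with edgeR, 2292 with DESeq2, 238 with limma on FPKM and 3 to 2844 as each library was left out. The number of genes of the set called higher in GSNOR KO was 0 with edgeR, 6 with DESeq2, 2 with the replicate block and 0 to 8 over the leave-outs. The 8 include the mural gene Cspg4. The number called lower was 1 (Prox1) with edgeR, 0 with limma voom (Prox1 adjusted p = 0.1) and with limma on FPKM, where Prox1 was under the filter, and 0 to 2 over the leave-outs. Prox1 lost its call without WT replicate 2 and without each GSNOR KO replicate in turn, with adjusted p between 0.103 and 0.167. The median log2 fold change of the lymphatic genes was 0.17, and -0.35 to 0.24 over the leave-outs, with 5 genes behind it.

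The log2 fold change of Ramp2 turned to -0.032 with library totals only, and lay between -0.20 and 0.26 over the leave-outs. That of Vegfb turned to -0.050 with library totals only and -0.0013 at a filter of at least 1 CPM, and lay between -0.036 and 0.074 over the leave-outs; Flt1 lay between -0.13 (without WT replicate 1) and 0.46. The count of genes apart and higher relative to other endothelial genes was 5, and 10 with the 21 genes not called, 2 with Cdh5 and 5 to 10 over the leave-outs. That of genes apart and lower was 10, and 4 with the 21 genes and 11 to 16 over the leave-outs. The cause of these changes was not tested.

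Same-numbered libraries of the groups deviated together with r = 0.16, 0.14 and -0.06, and differently numbered ones with r between -0.22 and 0.19. With so few libraries these values cannot tell whether the numbers pair the samples. With the number as a replicate block Dll4 and Cldn5 were called higher and Prox1 lower. Prox1 and Mmrn1 had 3 to 85 counts in a library; the effect of depth on their tests was not tested.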
